A study of Homo sapiens with 6 samples.

Results

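The 36 genes described here encode the machinery of homologous recombination, the Fanconi anaemia pathway of DNA crosslink repair, and the checkpoint kinases that answer to stalled or broken replication forks. They were chosen by gene symbol from a list of these pathways, with earlier results of these data known. All 36 were found among the 19470 symbols of the deposited tables. RNA sequencing had been run on A549 cells, a human lung adenocarcinoma line whose genotype the labels give as WT, in 2 groups of 3 libraries. The dormant group (libraries titled SF) had been treated to induce dormancy, and the activated group (titled OC) had received osteoclast-conditioned medium, osteoclasts being the cells that resorb bone. The comparison asked which genes differ when dormant cells become active. The means and length of dormancy induction, and the base medium of each group, are not stated in the labels, and a difference of medium cannot be told apart from activation. Nor do they say whether replicates were separate cultures, so the p-values reflect library-to-library spread alone, and that spread may be technical.

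Homologous recombination mends broken DNA by copying the sister chromatid. Broken ends are first cut back to single strands by nucleases that include the MRE11-RAD50-NBN complex and EXO1. BRCA1, BARD1, PALB2 and BRCA2 then prepare the single strands for invasion of the sister, and helicases such as BLM undo the joined molecules. In the Fanconi pathway a core complex of FANC proteins, with the conjugating enzyme UBE2T, attaches ubiquitin to the FANCI-FANCD2 clamp, which marks a crosslink for cutting. ATM and ATR are the apical kinases that sense breaks and stalled forks and act through CHEK2 and CHEK1. Since a sister chromatid exists only after replication, many genes of these pathways are known to be transcribed mainly in S and G2 phases, under E2F factors, while others are expressed through the whole cycle.

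Promoters are shown for the 4 genes with the largest rises and the 2 with the largest falls among the genes searched. Genes that moved by very different amounts can so be compared at their start sites. Each line gives 200 bases before and 30 after the first start listed by RefSeq (build GRCh38.p14), 5′ to 3′ along the gene, and 33 of the 36 genes had an entry. Capitals mark matches on either strand to the E2F-type letters TTTCCCGC, TTTGGCGC, TTTCGCGC and TTTGCCGC or to the CHR-type letters TTTGAA and TTTAAA, a pair of short elements known from cell cycle promoters.
CLSPN (chr1:35769949-35770178, minus strand): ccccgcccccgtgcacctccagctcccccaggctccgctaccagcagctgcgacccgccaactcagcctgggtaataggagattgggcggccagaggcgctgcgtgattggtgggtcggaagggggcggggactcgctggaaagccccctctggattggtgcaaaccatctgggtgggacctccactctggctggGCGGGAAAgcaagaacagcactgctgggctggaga
RAD54L (chr1:46247488-46247717, plus strand): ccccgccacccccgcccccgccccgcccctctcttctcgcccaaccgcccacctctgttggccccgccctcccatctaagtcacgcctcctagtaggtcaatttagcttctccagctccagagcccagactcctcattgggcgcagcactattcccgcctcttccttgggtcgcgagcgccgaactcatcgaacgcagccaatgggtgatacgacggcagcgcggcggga
EXO1 (chr1:241848004-241848233, plus strand): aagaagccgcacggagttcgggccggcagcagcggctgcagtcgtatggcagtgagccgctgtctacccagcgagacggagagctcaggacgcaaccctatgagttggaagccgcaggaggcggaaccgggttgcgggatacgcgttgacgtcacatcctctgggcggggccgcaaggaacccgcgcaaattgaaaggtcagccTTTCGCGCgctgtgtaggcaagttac
BRIP1 (chr17:61863499-61863728, minus strand): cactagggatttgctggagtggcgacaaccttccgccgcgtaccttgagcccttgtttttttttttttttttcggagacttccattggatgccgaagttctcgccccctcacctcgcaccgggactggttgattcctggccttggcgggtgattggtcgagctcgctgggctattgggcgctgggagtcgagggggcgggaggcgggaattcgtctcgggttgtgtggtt
RAD50 (chr5:132556777-132557006, plus strand): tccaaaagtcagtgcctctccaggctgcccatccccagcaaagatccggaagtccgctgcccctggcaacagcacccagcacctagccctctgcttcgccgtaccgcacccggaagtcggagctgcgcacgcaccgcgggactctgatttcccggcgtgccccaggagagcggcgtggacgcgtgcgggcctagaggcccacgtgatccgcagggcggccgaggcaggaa
ATM (chr11:108222867-108223096, plus strand): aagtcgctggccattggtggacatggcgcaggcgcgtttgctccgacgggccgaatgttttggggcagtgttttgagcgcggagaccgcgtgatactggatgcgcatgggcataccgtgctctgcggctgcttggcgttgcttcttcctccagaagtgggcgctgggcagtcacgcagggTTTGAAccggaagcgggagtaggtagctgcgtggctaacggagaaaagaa
CLSPN had the reverse complement of TTTCCCGC across its start, and EXO1 had TTTCGCGC beginning 5 bases after the start shown. EXO1 has 2 listed starts, and the other held TTTAAA beginning 41 bases before it. RefSeq places the first base of the EXO1 gene at 241847986, before the printed stretch. No match stood in the printed stretch of RAD54L, BRIP1 or RAD50, and ATM had TTTGAA beginning 20 bases before its start. Over the full windows of 300 bases, 7 of 45 starts of the 33 genes held an E2F-type match (15.6%). The share was 4.7% of 15736 starts of tested genes and 3.3% of all 35097 starts searched. A CHR-type match stood in 8 of the 45 starts (17.8%), beside 17.2% for tested genes. A window was counted once however many matches it held and whether or not they overlapped. The 7 genes with an E2F-type match were CLSPN, EXO1, FANCA, XRCC2, FANCD2, TOPBP1 and FANCC. Their median log2 fold change was 2.27, beside 1.07 for the 26 genes without a match, but the ranges overlapped widely, since FANCC had a match at 0.18 and RAD54L had none at 4.48. Over the tested genes with a searched start the split was far smaller. Medians were 0.11 for 695 genes with a match and -0.02 for 10017 without, and 15.7% and 10.7% were at least 2-fold higher. A match is a description of letters and not evidence that a factor was bound.

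Total counts lay between 34128471 and 36667725 per library, and the 36 genes took 0.0797% to 0.0823% of the counts in dormant libraries and 0.132% to 0.142% in activated libraries. Libraries of a group correlated at 0.993 to 0.996 (Pearson's r of log2 CPM across genes, which are not independent replicates) and libraries of different groups at 0.924 to 0.928. No library was a duplicate of another, since counts within groups gave chi-square values of 4.87 to 22.5 per degree of freedom. KRT8, an epithelial keratin, stood at 1672 ± 71.8 CPM (counts scaled to the normalised library size, SD, n = 3) in dormant and 3460 ± 168 CPM in activated cells. The epithelial adhesion gene EPCAM was low at 1.28 ± 0.513 and 0.611 ± 0.185 CPM, and CDKN2A, which A549 cells are known to lack, had 1 count in 1 dormant library and 0 in the others. Of 21 osteoclast and myeloid markers, 8 had 0 counts in every library, among them TYROBP, CALCR and DCSTAMP. The list summed to 170 to 180 CPM in dormant and 175 to 184 CPM in activated libraries, most of it CD68, and this sum hides opposite changes. Of its 9 tested genes 5 rose and 3 fell. ATP6V0D2 fell from 19.3 ± 1.72 to 0.0707 ± 0.0982 CPM, and ACP5 and CTSK fell too, while CD14 rose from 1.10 ± 0.396 to 9.25 ± 0.478 CPM and LAPTM5, CSF1R and MMP9 rose to 2.10 CPM or less. The 10 stromal markers summed to 19.9 to 23.6 CPM and 19.3 to 21.3 CPM, with 4 of 5 tested genes higher (COL1A1, LUM, PDGFRA and DCN, median of the 5 log2 fold changes 1.66) and RUNX2 lower, from 15.4 ± 1.53 to 8.75 ± 0.126 CPM. The part of these markers in the changes of the 36 genes was not tested.

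Of the 36 genes, 29 rose in activated cells, 3 fell and 4 did not pass the threshold, an adjusted p under 0.05 in edgeR's quasi-likelihood test with Benjamini-Hochberg adjustment over all 13336 genes tested. All 36 passed the filter on low counts, with at least 23 counts in every library, so none was tested only because it was high in 1 group. The background was high, since 73.7% of all genes tested passed in either direction, 36.5% as higher and 37.2% as lower. The rising share of the 36 genes was 80.6% and the falling share 8.33%. At least a 2-fold rise past the threshold was seen for 22 of the 36 genes, beside 11.2% of all genes tested, and at least a 2-fold fall for 0, beside 11% lower. The 3 genes that fell had adjusted p between 1.23e-07 and 0.00792. The median log2 fold change was 1.20, beside -0.02 for all genes tested. The CPM values of the 2 groups did not overlap for the 29 genes that rose and the 3 that fell, beside 76.5% of all genes tested. In bulk RNA, a larger share of cells in S and G2 phases and more RNA per cell cannot be told apart. MKI67, a marker of cycling cells, moved with these genes (log2 fold change 2.13), as did the replicative helicase genes MCM2 to MCM7 (0.91 to 2.55) and the clamp gene PCNA (1.44), and their part in the result was not tested.

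**Figure D1:**
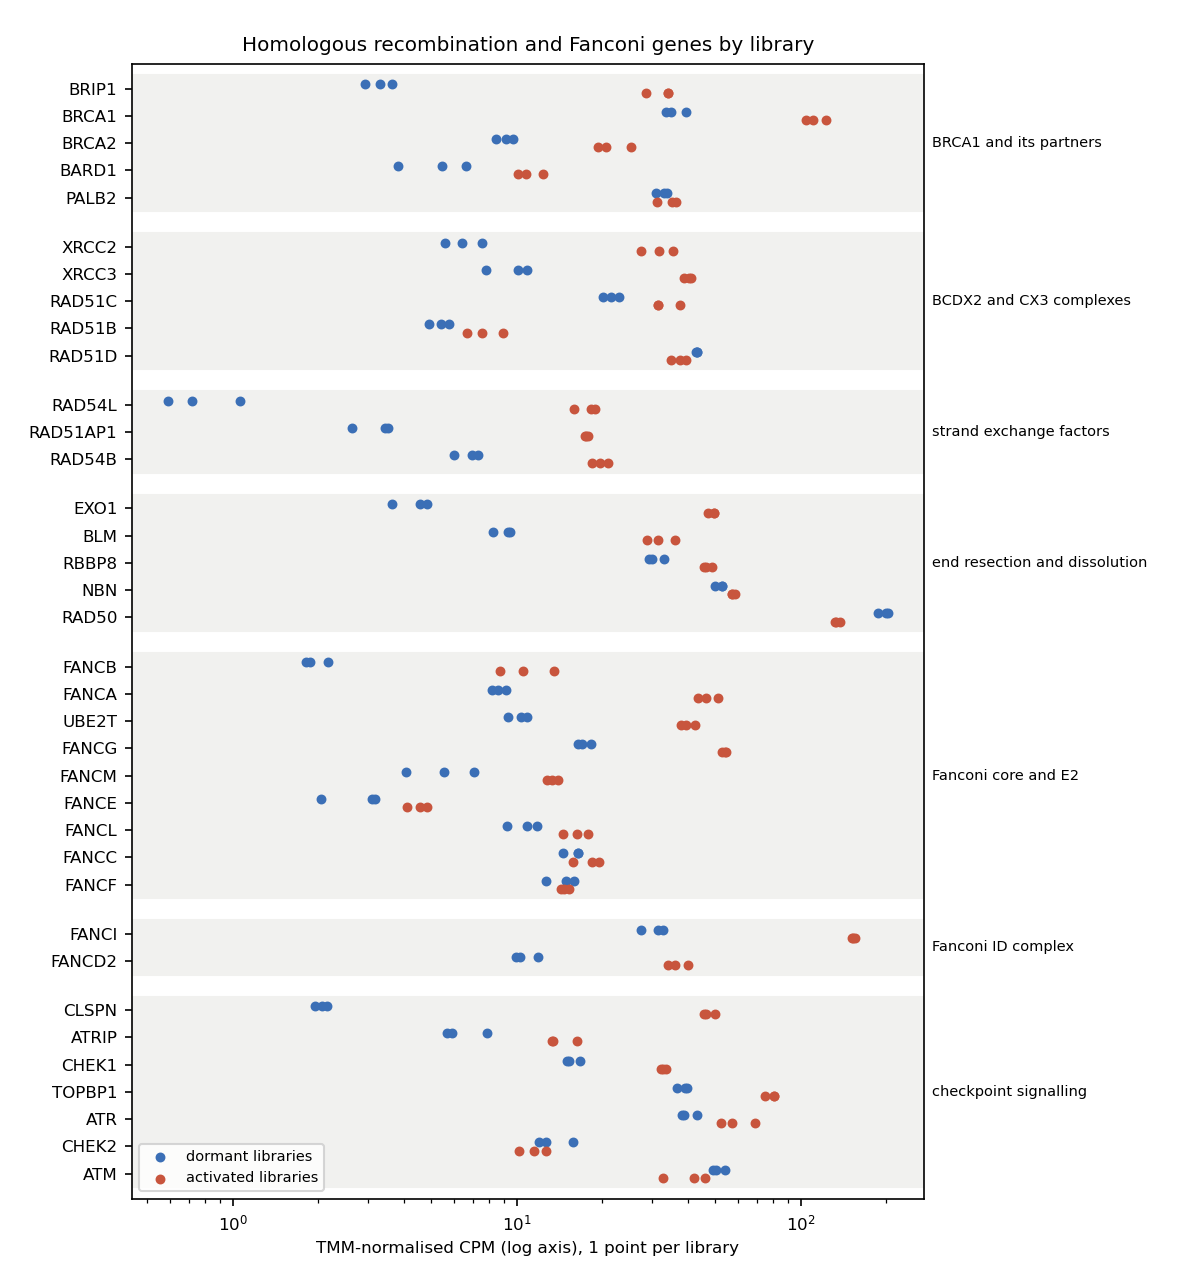
TMM-normalised CPM of the 36 genes (log axis), 1 point per library, grouped by role, with dormant libraries in blue and activated libraries in red. The points of the groups stand apart for 32 genes and overlap for PALB2, FANCC, FANCF and CHEK2.

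The BRCA1 group showed 4 rises among its 5 genes, with values from near no change to about 10-fold. BRCA1, the ubiquitin ligase subunit that steers breaks toward recombination (chromosome 17, 43044295 to 43170327), was at 35.0, 33.5 and 39.5 CPM in dormant libraries and at 105, 123 and 110.4 CPM in activated libraries. Every activated library stood above every dormant library, a 3.13-fold change (log2 fold change 1.65 ± 0.07 SE, adjusted p = 4.32e-11). BARD1, its obligate partner, went from 6.65, 3.81 and 5.45 CPM to 10.1, 12.4 and 10.8 CPM, a 2.10-fold rise. BRIP1 (also FANCJ), a helicase that binds BRCA1, went from 3.63, 2.93 and 3.30 CPM to 28.6, 34.1 and 34.2 CPM. Its 9.82-fold rise was the fourth of the 36 in size (log2 fold change 3.30 ± 0.12 SE, adjusted p = 3.39e-12). BRCA2, a mediator of strand invasion, rose 2.39-fold from 9.10 ± 0.621 to 21.7 ± 3.13 CPM (SD, n = 3). PALB2, which bridges BRCA1 and BRCA2, had 30.9, 33.9 and 33.1 CPM in dormant and 35.2, 31.2 and 36.3 CPM in activated libraries. Its groups overlapped, and the 95% interval of its log2 fold change ran from -0.09 to 0.23 (adjusted p = 0.411 in edgeR). The sign of the PALB2 value was not settled, since it was 0.07 with TMM factors and -0.07 with total counts.

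The genes of the complexes BCDX2 (RAD51B, RAD51C, RAD51D and XRCC2) and CX3 (RAD51C and XRCC3), which assist strand invasion, were split in size and sign. XRCC2 was at 5.58, 7.54 and 6.40 CPM in dormant and 27.4, 35.5 and 31.6 CPM in activated libraries, a 4.83-fold rise. XRCC3 was at 7.77, 10.9 and 10.2 CPM in dormant and 38.7, 41.2 and 40.4 CPM in activated libraries, a 4.17-fold rise. For both genes the lowest activated library stood well above the highest dormant library. RAD51C rose 1.55-fold, from 20.2, 23.0 and 21.4 CPM to 37.5, 31.4 and 31.6 CPM, and RAD51B 1.43-fold, from 5.37 ± 0.434 to 7.70 ± 1.14 CPM. RAD51D went the other way, from 43.2, 43.2 and 43.0 CPM to 37.5, 39.4 and 35.0 CPM, a 1.16-fold fall (log2 fold change -0.21 ± 0.06 SE, adjusted p = 0.00792 in edgeR). The fall of RAD51D lost its call without activated replicate 3 (adjusted p = 0.0512) and after a correction for gene length (log2 fold change -0.07, adjusted p = 0.338). A readthrough locus of RAD51D and the neighbouring gene RFFL shares 905 of the 11304 RAD51D exon bases on the same strand, so the RAD51D counts are uncertain. RFFL itself fell more, from 84.0 ± 2.01 to 54.9 ± 4.21 CPM (log2 fold change -0.61), and its part in the RAD51D value was not tested. Of the 7507 exon bases of XRCC3 in GENCODE v29, 76.7% overlap KLC1 on the other strand. The deposited counts and FPKM imply a length of 2610 bases for XRCC3, so the overlap within the gene model counted is not known. Since the strand setting of the counting is not given either, the XRCC3 counts are uncertain. KLC1 itself fell, from 117 ± 2.88 to 105 ± 6.03 CPM, and its part in the XRCC3 value was not tested.

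The 3 other strand exchange genes, RAD54L, RAD51AP1 and RAD54B, all rose. RAD54L, a motor protein that moves along DNA during strand exchange (chromosome 1, 46247688 to 46278473), had 27, 23 and 38 counts in dormant libraries and 544, 657 and 599 counts in activated libraries. In CPM these were 0.721, 0.592 and 1.06 against 15.9, 18.9 and 18.2, a 22.4-fold rise (log2 fold change 4.48 ± 0.19 SE, adjusted p = 1.85e-11). The dormant level rests on few counts, and leaving out 1 library moved the log2 fold change between 4.31 and 4.75. LRRC41 overlaps 25.1% of the exon bases of RAD54L on the other strand and rose far less (log2 fold change 0.18). RAD51AP1, which stimulates strand exchange, went from 3.53, 3.45 and 2.63 CPM to 17.4, 17.5 and 17.9 CPM, a 5.48-fold rise. RAD54B, the paralog of RAD54L, rose 2.90-fold, from 6.76 ± 0.666 to 19.6 ± 1.29 CPM. FSBP shares 59.1% of the RAD54B exon bases and was listed at 0 in every library, so how reads of the shared exons were assigned is uncertain.

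Among the genes of end resection and dissolution, the nuclease EXO1 and the helicase BLM rose by 2-fold or more, and the MRE11-RAD50-NBN genes did not. EXO1, which digests ends over long distances (chromosome 1, 241847986 to 241889939), was at 3.63, 4.58 and 4.84 CPM in dormant and at 47.1, 49.5 and 49.5 CPM in activated libraries. Relative to the mean, the activated libraries lay close together (48.7 ± 1.38 CPM, SD, n = 3) and the dormant libraries less so (4.35 ± 0.634 CPM). The change was 11.2-fold (log2 fold change 3.49 ± 0.10 SE, adjusted p = 3.67e-13). BLM, the helicase of Bloom syndrome, rose 3.57-fold to 32.1 ± 3.77 CPM, and RBBP8 (CtIP), the factor that starts resection, rose 1.53-fold to 47.0 ± 1.57 CPM. NBN, which tethers the complex to ATM, had 49.98, 52.7 and 52.8 CPM in dormant and 57.3, 59.0 and 57.5 CPM in activated libraries. Its 1.12-fold rise passed at an adjusted p of 0.0161 in edgeR and lost its call under total-count scaling (0.02 on the log2 scale, adjusted p = 0.745), in the 3 limma fits on log2 FPKM (0.02 in each, adjusted p from 0.713 to 0.741) and without dormant replicate 1 (adjusted p = 0.0652). RAD50, the long coiled-coil subunit that holds ends together, had the highest CPM of the 36 genes in dormant cells. It fell from 203, 199.7 and 188 CPM to 132, 138 and 133 CPM, a 1.46-fold change (log2 fold change -0.55 ± 0.05 SE, adjusted p = 1.23e-07). The fall kept its call under every alternative run, with log2 fold changes from -0.69 to -0.42 across the count-based ones. A readthrough locus, AC116366.3, covers 79.7% of the RAD50 exon bases on the same strand in GENCODE v29, and which annotation the authors counted against is not given.

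**Figure D2:**
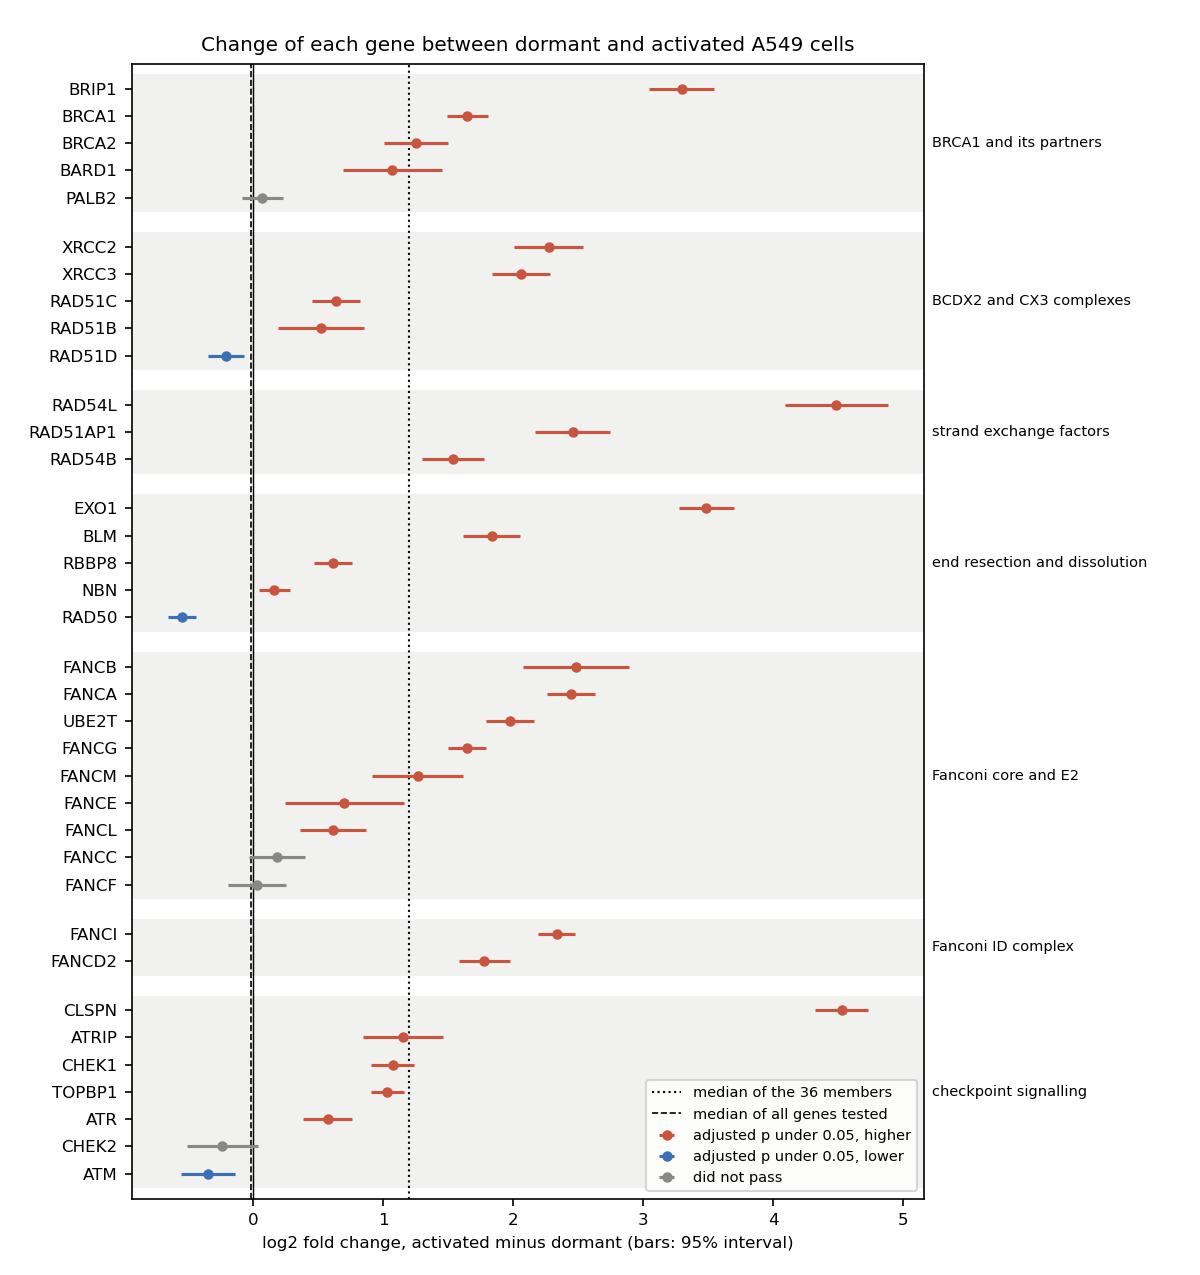
Log2 fold change of each gene (activated minus dormant, edgeR) with its 95% interval, grouped by role, with rises in red, falls in blue and genes that did not pass in grey. The dotted line marks the median of the 36 genes (1.20) and the dashed line that of all genes tested (-0.02), and within most roles the genes spread on both sides of the dotted line.

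In the Fanconi pathway, 7 of 9 core and conjugation genes rose and 2 did not pass, and both genes of the clamp rose. FANCI, at 27.3, 31.4 and 32.7 CPM in dormant libraries, reached 153, 155 and 152 CPM in activated libraries. This 5.04-fold rise (log2 fold change 2.33 ± 0.07 SE, adjusted p = 3.23e-13) made it the member with the highest activated CPM. FANCD2, its partner in the clamp, rose 3.43-fold, from 9.96, 11.9 and 10.3 CPM to 34.1, 40.1 and 35.98 CPM. The activated values of both genes stood at more than 2 times the highest dormant library. FANCA and FANCB, subunits of the core complex, rose 5.45-fold and 5.59-fold. FANCA went from 8.60, 8.21 and 9.14 CPM to 43.7, 51.3 and 46.4 CPM, while ZNF276, which overlaps 23.6% of its exon bases on the other strand, fell (log2 fold change -0.38). FANCB, on chromosome X (14689524 to 14873069), went from 1.82, 2.16 and 1.87 CPM to 8.77, 13.5 and 10.5 CPM. Neither gene had overlapping groups. Relative to its mean, FANCB varied more between activated libraries (10.9 ± 2.38 CPM, SD, n = 3, beside 47.1 ± 3.85 CPM for FANCA).

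UBE2T, the ubiquitin-conjugating enzyme of the pathway, rose 3.93-fold to 39.9 ± 2.30 CPM and FANCG, which stabilises FANCA, 3.12-fold to 53.8 ± 1.06 CPM. FANCM, the translocase that anchors the core complex to DNA, rose 2.40-fold, and FANCE, the adaptor to FANCD2, 1.62-fold from 2.77 ± 0.632 CPM. FANCL, the ubiquitin ligase subunit that works with UBE2T, rose 1.53-fold, from 10.6 ± 1.28 to 16.3 ± 1.65 CPM. VRK2 overlaps 19.7% of the FANCL exon bases on the other strand and fell from 83.0 ± 4.39 to 22.0 ± 3.85 CPM. FANCC, at 16.4, 14.6 and 16.4 CPM in dormant and 15.8, 19.5 and 18.4 CPM in activated libraries, did not pass in edgeR (95% interval of the log2 fold change -0.03 to 0.40, adjusted p = 0.118). It passed as higher without activated replicate 1 (log2 fold change 0.27, adjusted p = 0.0255) and after the gene length correction (0.32, adjusted p = 0.00643). FANCF, an adaptor of the core complex with a single exon, had 15.9, 12.7 and 14.9 CPM in dormant and 15.3, 14.7 and 14.3 CPM in activated libraries, also without passing (95% interval -0.20 to 0.25, adjusted p = 0.831 in edgeR). The activated FANCF values lay inside the dormant range.

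Checkpoint genes ranged from the largest rise of the 36 genes to a fall, with 5 of 7 higher and 1 lower. CLSPN encodes Claspin, the adaptor that brings CHEK1 to ATR (chromosome 1, 35720213 to 35769978). It had 1.95, 2.06 and 2.15 CPM in dormant libraries and 49.9, 46.5 and 45.8 CPM in activated libraries. The rise was 23.0-fold (log2 fold change 4.53 ± 0.10 SE, adjusted p = 2.45e-14), with at least 73 counts in every dormant library. TOPBP1, the activator of ATR, rose 2.04-fold to 78.7 ± 3.50 CPM, and CHEK1, the kinase downstream of ATR, 2.10-fold to 32.9 ± 0.690 CPM. ATR rose less, from 39.0, 43.2 and 38.3 CPM to 52.6, 68.9 and 57.6 CPM (1.49-fold). ATRIP, the subunit that brings ATR to single-stranded DNA, rose 2.22-fold, from 5.90, 5.68 and 7.86 CPM to 16.3, 13.5 and 13.3 CPM. TREX1 shares 27.9% of the ATRIP exon bases on the same strand and was listed at 0 in every library, so the ATRIP counts are uncertain.

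The kinase pair that answers to breaks did not follow the ATR branch upward. ATM, the apical kinase of the break response (chromosome 11, 108223067 to 108369102), went from 49.2, 54.4 and 50.4 CPM to 32.7, 46.2 and 42.0 CPM, a 1.27-fold fall. All activated libraries stood below all dormant libraries, with activated replicate 1 lowest (log2 fold change -0.35 ± 0.10 SE, adjusted p = 0.00508). Without that library the log2 fold change was -0.21. CHEK2, the kinase downstream of ATM, had 12.02, 12.7 and 15.9 CPM in dormant and 12.7, 11.6 and 10.2 CPM in activated libraries. It did not pass in edgeR with TMM factors (log2 fold change -0.24, adjusted p = 0.104), and it passed as lower with total counts (-0.38, adjusted p = 0.0152), in both filtered limma fits on log2 FPKM (-0.30 and -0.37, adjusted p = 0.0140 and 0.0147), with the gene length correction (-0.29, adjusted p = 0.0444) and without activated replicate 1 (-0.31, adjusted p = 0.0486). CHEK2 has pseudogene copies in the annotation, which can take or lose reads. A pseudogene copy is also annotated for each of RAD51AP1, RBBP8 and FANCD2. The difference between the ATM and ATR branches was not itself tested.

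Ratios of partner genes within a library do not depend on how libraries are scaled to each other, and 6 such ratios of counts were compared. With 3 libraries against 3, the exact two-sided permutation test cannot go below p = 0.10. In this test 5 of the 6 ratios reached that floor (adjusted over the 6, exact permutation p = 0.12). The floor is reached when the groups do not overlap, and the CPM of 76.5% of all genes tested did not overlap either. Ratios of other gene pairs were not tested, so whether 5 of 6 is unusual is not known. RAD51D to XRCC2 changed most. The ratio was 7.74, 5.73 and 6.71 in dormant libraries and 1.37, 1.11 and 1.11 in activated libraries, a 5.62-fold fall (exact permutation p = 0.10). RAD51C to XRCC3 fell 2.72-fold, from 2.60, 2.11 and 2.11 to 0.968, 0.763 and 0.782, so the order of the CX3 pair in counts turned. Per length the same pairs stood at 3.17 and 2.48 in dormant and 0.565 and 0.914 in activated cells as ratios of FPKM (fragments scaled by gene length and library total). RAD50 to NBN fell from 3.80 ± 0.255 to 2.32 ± 0.0186 (SD, n = 3), with almost no spread among activated libraries. FANCD2 to FANCI fell from 0.352 ± 0.0335 to 0.239 ± 0.0173, since FANCI rose more. BRCA1 to BARD1 went up, from 5.27, 8.80 and 7.24 to 10.3, 9.93 and 10.2, beside dormant BARD1 counts of 148 to 249. Without dormant replicate 1 the log2 difference of this ratio was 0.35, beside 0.55 with all libraries. For ATR to ATRIP the groups overlapped, at 6.61, 7.60 and 4.88 against 3.23, 5.12 and 4.32 (exact permutation p = 0.20).

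**Figure D3:**
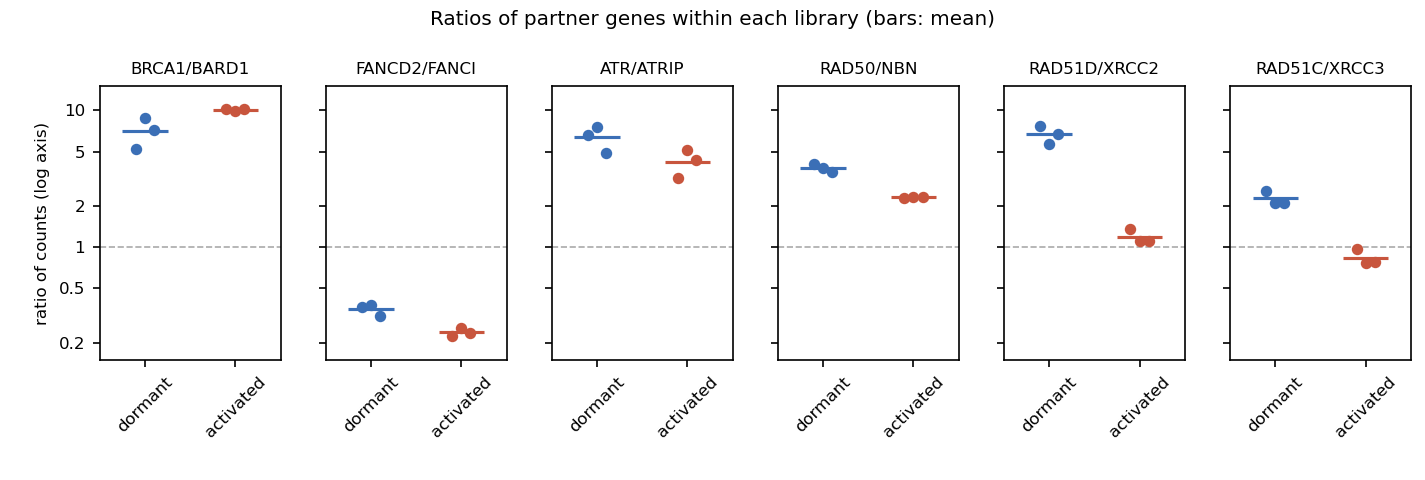
Ratio of the counts of 6 pairs of partner genes (log axis), 1 point per library, with a bar at the group mean and a dashed line at equal counts. The 2 pairs of the BCDX2 and CX3 complexes approach or cross the line of equal counts in activated cells, and the ATR to ATRIP panel is the 1 where the groups overlap.

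Levels between genes are compared here per length, as mean FPKM over 3 libraries. The order of genes depends on the gene length in the deposited FPKM, whose source is not given. For UBE2T that length is 882 bases, beside 1652 exon bases in GENCODE v29, and for FANCB it is 7688 beside 3593. Places with other lengths were not tested. In dormant cells the 36 genes ran from 0.232 for CLSPN to 24.98 for RAD50, with a median of 2.57, and 9 of them were under 1. In activated cells they ran from 0.792 for RAD51B to 43.1 for UBE2T, with a median of 6.12, and 1 was under 1. The highest level was 108 times the lowest in dormant cells and 54.5 times in activated cells. RAD50 (24.98 ± 1.03 FPKM, SD, n = 3), UBE2T (12.1 ± 0.822) and NBN (10.6 ± 0.408) led in dormant cells. UBE2T (43.1 ± 2.47), FANCI (30.6 ± 0.379) and FANCG (20.1 ± 0.407) led in activated cells, and in both groups each of the 3 stood apart from the next of them by more than either SD. EXO1 moved up from place 26 to place 9 of 36, CLSPN from the last place to place 22, and RAD54L from place 35 to place 21. ATM moved down from place 14 to place 26 and CHEK2 from place 13 to place 24. Across the 36 genes the log2 fold change ran opposite to the dormant CPM (Spearman's rho -0.68). That is a description over genes that share the same 6 libraries, and the dormant values enter both measures. With gene length rho was -0.14, as over all genes tested.

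**Figure D4:**
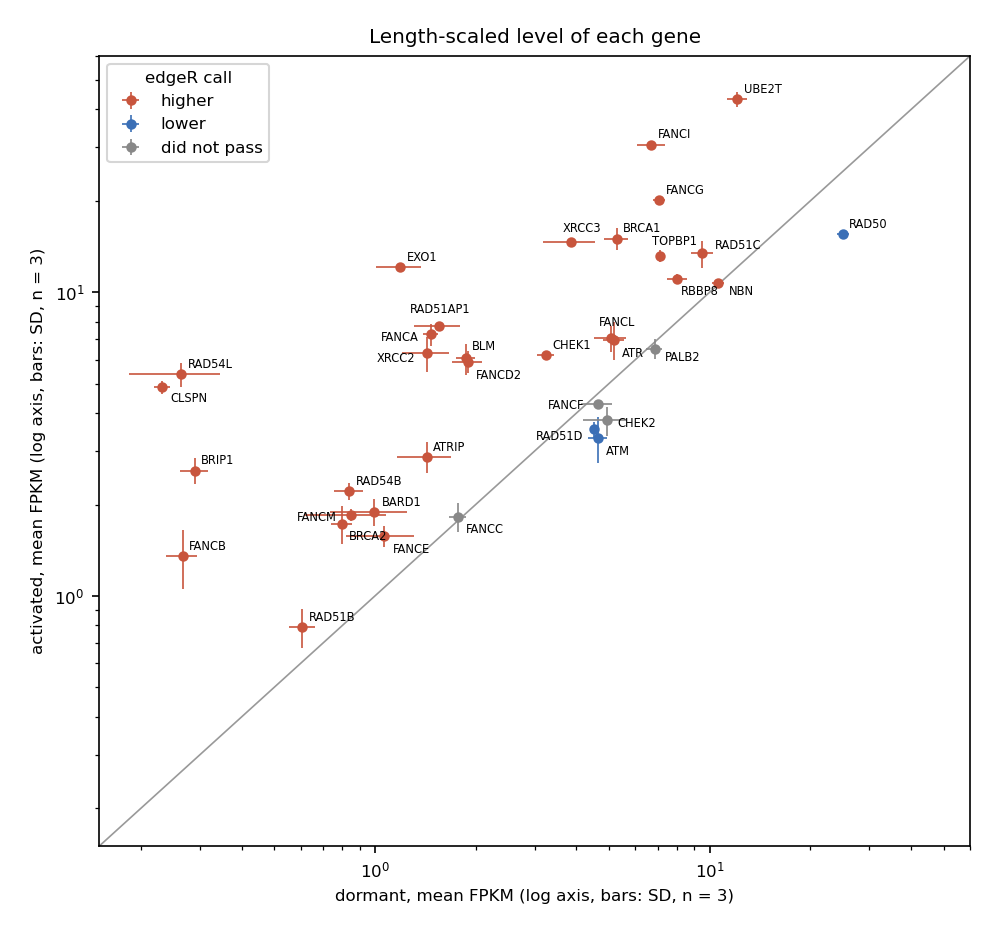
Mean FPKM of each gene in activated against dormant libraries (log axes), with SD bars over 3 libraries and a line of equal level. Genes with the lowest dormant FPKM, such as CLSPN, RAD54L and BRIP1, stand far above the line. RAD50, ATM and RAD51D stand below it, as do CHEK2, PALB2 and FANCF, which did not pass.

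Other genes of the same pathways, 75 of them, gave 49 rises, 11 falls and 15 that did not pass, with a median log2 fold change of 0.41. The shares were 65.3% higher and 14.7% lower, beside 36.5% and 37.2% of all genes tested, whose median was -0.02. MRE11, the nuclease of the RAD50 complex, went from 27.9 ± 1.60 to 33.7 ± 2.97 CPM (log2 fold change 0.27, adjusted p = 0.00706 in edgeR), so MRE11, NBN and RAD50 had log2 fold changes of 0.27, 0.16 and -0.55. The helicase genes RTEL1 and RECQL4 and the phosphatase gene CDC25A, an activator of cyclin-dependent kinases, had the largest rises of the 75, by log2 fold changes of 3.77, 3.31 and 2.93. The largest falls were of REV3L, the catalytic subunit of translesion polymerase zeta (-1.01), RAD17, the loader of the checkpoint clamp (-0.98), and MCM9, a helicase of recombination (-0.78). MCM8, with which MCM9 forms a complex, rose (1.63). This pair was picked after its values were seen. By role, dissolution and helicase genes had the highest median (1.35, 10 of 15 rose and 4 fell) and resection and nuclease genes the lowest (0.22, 6 of 12 rose and 3 fell).

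Genes of repair pathways that do not need a sister chromatid had a median log2 fold change of 0.21 over 55 genes, with 49.1% higher and 18.2% lower, beside 36.5% and 37.2% of all genes tested. Of 10 end-joining genes, 4 rose and 4 fell (median -0.13), and of 18 nucleotide excision genes, 7 rose and 4 fell (median 0.17). The rising shares of these 2 lists, 40% and 38.9%, and the falling share of the end-joining list, 40%, were near those of all genes tested. Among 7 mismatch repair genes 4 rose and 0 fell (median 0.23), and among 20 base excision genes 12 rose and 2 fell (median 0.43). Over these 55 genes, 8 rose by 2-fold or more (14.5%, beside 11.2% of all genes tested). By list the share was 28.6% for mismatch, 25% for base excision, 5.56% for nucleotide excision and 0% for end joining. Such a rise was seen for 24 of the 75 other genes of the same pathways (32%). Of the 36 recombination, Fanconi and checkpoint genes, 22 rose by this much (61.1%). The largest rises of the 55 were of NEIL3 (2.74), a glycosylase known to open some crosslinks, LIG1 (2.31), the replicative ligase, and FEN1 (2.23), the flap nuclease of lagging-strand synthesis. ERCC6 (-1.16), GTF2H1 (-0.92) and XPC (-0.79), genes of nucleotide excision, had the largest falls. No difference between lists was tested, and the lists were chosen with earlier results of these data known.

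**Figure D5:**
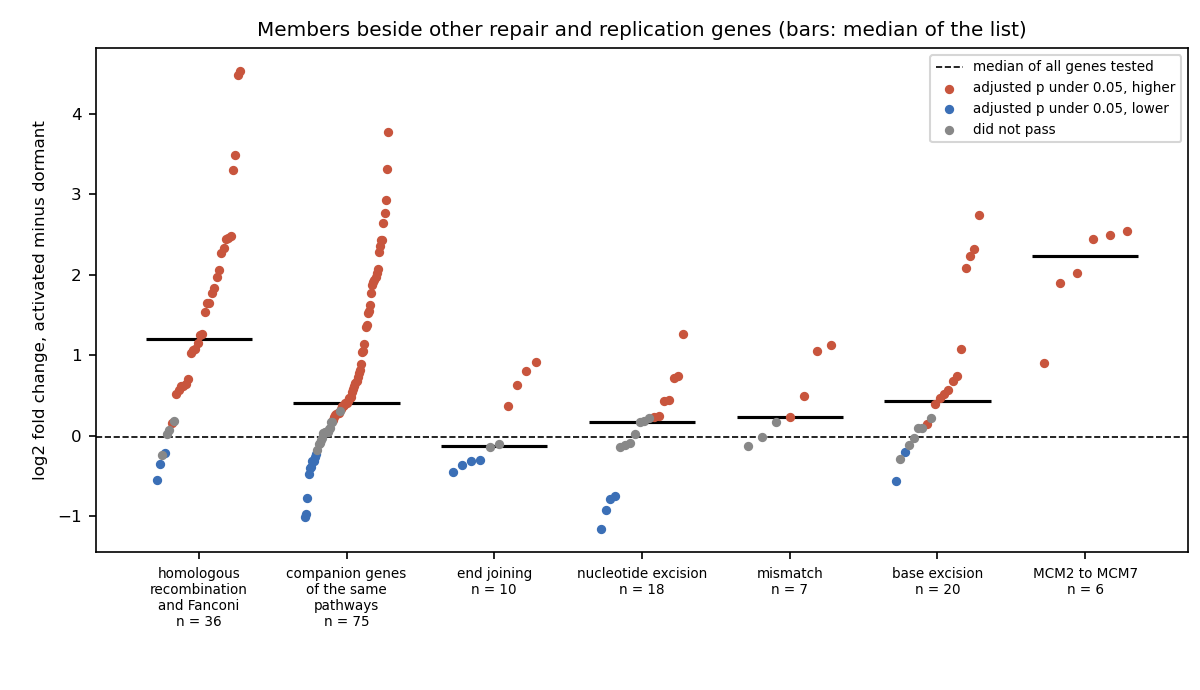
Log2 fold change (activated minus dormant) of each gene of 7 lists, in ascending order within a list, with a bar at the median of the list and a dashed line at the median of all genes tested. The recombination and Fanconi list has its median at 1.20, the MCM helicase genes at 2.23 and the end-joining genes at -0.13.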

How the data were processed

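The authors deposited whole-number counts per gene symbol for 6 A549 libraries, and a table of FPKM. HTSeq, HISAT2 and fastp are the tools, and GRCh38 the build, named in the submitters' processing notes, without a version, an annotation or a strand setting. The deposited FPKM values are the counts divided by a gene length and the total of the table, as count over FPKM followed the totals within 0.1% for all 10754 genes with at least 100 counts in every library. Total counts per library set the precision, and genes with few counts are the least certain.

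Counts were tested with edgeR 4.0.16 (R 4.3.3), TMM factors, its filterByExpr filter (minimum count 10) and a quasi-likelihood fit, and p-values were adjusted by Benjamini-Hochberg over 13336 genes. CPM are TMM-normalised, and standard errors are the log2 fold change over the square root of F. The procedure was tested on simulated data in which few genes changed, as many up as down, which does not test the scaling between libraries. Members and lists were chosen with earlier results of these data known. Per-library values were given for the 8 largest rises, all falls, genes that did not pass and partner pairs, and for the companion and the other repair list the 3 largest changes each way at a mean log2 CPM not below 0, plus MRE11. An item covered by this rule is not reported here. Alternatives were DESeq2 1.42.0 or its size factors, total counts, upper-quartile factors, limma 3.58.1 (voom, or log2 FPKM plus 1 or 0.1), other filters, a block, each library left out, and a loess correction for gene length (span 0.3). Exon overlaps come from GENCODE v29 and gene positions from RefSeq GRCh38.p14, 1-based. The gene models that were counted may differ from those of GENCODE v29.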

Additional observations from a re-analysis of the deposited data

How the results depend on the processing

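Of the 36 genes, 31 to 34 passed under every alternative, 27 to 30 as higher and 2 to 4 as lower, beside 32, 29 and 3. Leaving out 1 library gave 31 to 34 and, of the 75 companion genes, 57 to 61 beside 60. Total counts moved the median of all genes by -0.14 on the log2 scale, and the higher share of all calls from 49.5% to 39.7%, with 3941 higher and 5998 lower genes beside 4868 and 4962. Of 648 values of single genes under alternatives, 622 kept direction and side of the threshold, 9 lost and 7 gained a call, and 10 turned sign. The turned values were of PALB2, at -0.071 with total counts and with log2(FPKM + 0.1) and -0.062 with log2(FPKM + 1) with and without a filter, and of FANCF, at -0.11 with total counts and with log2(FPKM + 0.1), -0.000649 with upper-quartile factors, -0.089 with log2(FPKM + 1) with and without a filter and -0.060 without dormant replicate 2 (range over left-out libraries -0.060 to 0.10). Neither gene passed in any of these, and the cause was not tested. RAD51B missed the threshold with filtered log2(FPKM + 1) (adjusted p = 0.0904 in limma). Each filtered FPKM fit gave 27 genes higher, so with log2(FPKM + 0.1) too a rise besides that of NBN lost its call. The replicate number as a block gave 32 genes, 29 higher and 3 lower. As a check of pairing, same-numbered libraries had deviations from their group means that correlated at -0.0068, 0.036 and 0.020, and not every library correlated best with its own number, so replicate numbers were treated as names. Each of the 6 partner ratios kept its direction without any 1 library. Depth limits RAD54L, with 23 to 38 dormant counts.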
